A study of Mus musculus with 4 samples.

Results

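The Snrpn-Ndn domain on mouse chromosome 7 is described here through 6 of its protein-coding genes, Ube3a, Snrpn, Ndn, Magel2, Mkrn3 and Peg12, out of 21951 protein-coding genes in the GENCODE vM21 annotation of GRCm38. The rule takes these genes by name and position and uses no measured value, though it was set with earlier results of these data known. Transcription initiation was mapped by PRO-seq, which sequences the nascent RNA of engaged RNA polymerases, in 2 libraries of liver and 2 libraries of yolk sac from E14.5 mouse embryos (staged by embryonic day). Each library came from tissue pooled from 6 embryos, so embryos within a pool cannot be told apart. C57BL/6J females had been mated with males of a mixed C57BL/6J and CAST/EiJ background, which were selected for CAST/EiJ variants of Dlk1/Gtl2, a locus on chromosome 12. The labels of all 4 samples spell the strain background as Mixed C57BL/6h and CAST/EiJ. No source used here gives the strain origin of the paternal chromosome 7, and no values per allele were analysed. The labels give both tissues the same background and name no treatment. The deposited values are 1 list per library of dREG peaks, intervals that a classifier scored as places where transcription starts. A bulk list cannot separate fewer transcribing cells from less transcription per cell.

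In an imprinted domain, a gene is expressed from only the copy inherited from the father or only that inherited from the mother. The domain is controlled by an imprinting centre at the main Snrpn promoter, which is methylated on the maternal copy. Snrpn, Ndn, Magel2, Mkrn3 and Peg12 are known as paternally expressed genes. Ube3a is known for expression from the maternal copy in neurons, where the long antisense RNA Snhg14 silences the paternal copy, and from both copies in most other tissues. Loss of the paternal or the maternal contribution of the matching human region causes Prader-Willi or Angelman syndrome.

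The genes form 2 groups that lie far apart. Ube3a (59228750 to 59311536, + strand) encodes the ubiquitin ligase E6AP, and Snrpn (59982495 to 60140219, - strand) encodes SmN, a protein of small nuclear ribonucleoproteins. Ndn (62346569 to 62350262, + strand) encodes necdin and Magel2 (62377010 to 62381640, + strand) encodes a relative of it in the MAGE family. Mkrn3 (62417593 to 62420139, - strand) encodes a makorin zinc finger protein, and Peg12 (62461871 to 62464510, - strand), also called Frat3, encodes a FRAT family protein that binds the kinase GSK3. The last 4 genes lie within 0.118 Mb, so their flanks overlap.

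Letters before the starts are shown first because the start positions decide which peaks are counted at Snrpn and Ndn. RefSeq promoter sequences (GRCm38.p6) were found for all 6 genes, with 4 starts for Snrpn and 1 for each other gene. Both strands were searched for CGCATGCG, the inner letters of the palindrome bound by the factor NRF1. It occurred in 1.86% of 32817 windows that run from 250 bases before to 50 after a RefSeq start. Among the 6 genes it stood in the window of Ndn and in those of all 4 Snrpn starts. All motifs named here were chosen after the sequences had been read, and a match is a description of the letters. The matches are shown in capitals within 30 bases.
Ndn (chr7:62348243-62348272, + strand): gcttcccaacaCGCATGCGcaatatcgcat
Snrpn main start (chr7:60005150-60005179, - strand): cagccattgcctgggaCGCATGCGtaggga
Snrpn upstream start at 60047978 (chr7:60048031-60048060, - strand): gcaaacatgcaCGCATGCGtcgttgaaggt
Snrpn upstream start at 60140225 (chr7:60140285-60140314, - strand): gcaaacatccaCGCATGCGtgatgggaggg
Snrpn upstream start at 60450177 (chr7:60450222-60450251, - strand): gcaaacatccaCGCATGCGtgattggaagg

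The 3 upstream Snrpn windows were 79.7% to 81.1% identical to each other over 300 bases and thus are not separate cases of the match. They were 40.9% to 46.4% identical to the window of the main start. At the main start the match lay 36 to 43 bases after the RefSeq position, and at Ndn it lay at -23 to -16.

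The 250 bases before the start are shown next for the 5 genes whose GENCODE starts had peaks. Capitals mark CGCATGCG, the ETS-family core CCGGAAGT, the YY1 motif AAGATGGC and the GC box GGGCGG, each on either strand. In the 5 stretches these did not overlap each other.
Snrpn main start (chr7:60005200-60005449, - strand): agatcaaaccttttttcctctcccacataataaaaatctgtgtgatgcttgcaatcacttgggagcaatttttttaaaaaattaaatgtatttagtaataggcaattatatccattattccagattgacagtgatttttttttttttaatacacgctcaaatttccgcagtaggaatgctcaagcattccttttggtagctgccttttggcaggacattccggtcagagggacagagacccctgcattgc
Ube3a (chr7:59228500-59228749, + strand): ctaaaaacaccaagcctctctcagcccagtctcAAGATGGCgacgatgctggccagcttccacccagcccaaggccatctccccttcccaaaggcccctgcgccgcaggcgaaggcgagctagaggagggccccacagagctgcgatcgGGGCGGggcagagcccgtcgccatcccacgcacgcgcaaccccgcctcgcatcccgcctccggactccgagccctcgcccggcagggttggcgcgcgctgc
Magel2 (chr7:62376729-62376978, + strand): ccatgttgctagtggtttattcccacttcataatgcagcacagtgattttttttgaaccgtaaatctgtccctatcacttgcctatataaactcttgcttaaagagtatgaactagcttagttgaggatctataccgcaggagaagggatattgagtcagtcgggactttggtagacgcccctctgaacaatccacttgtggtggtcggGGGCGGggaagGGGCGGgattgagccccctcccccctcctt
Mkrn3 (chr7:62420154-62420403, - strand): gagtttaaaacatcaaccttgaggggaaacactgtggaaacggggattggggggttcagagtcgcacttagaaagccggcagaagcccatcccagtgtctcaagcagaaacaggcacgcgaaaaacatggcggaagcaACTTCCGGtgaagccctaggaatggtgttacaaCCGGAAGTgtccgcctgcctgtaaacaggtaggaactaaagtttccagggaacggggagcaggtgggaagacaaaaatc
Peg12 (chr7:62464511-62464760, - strand): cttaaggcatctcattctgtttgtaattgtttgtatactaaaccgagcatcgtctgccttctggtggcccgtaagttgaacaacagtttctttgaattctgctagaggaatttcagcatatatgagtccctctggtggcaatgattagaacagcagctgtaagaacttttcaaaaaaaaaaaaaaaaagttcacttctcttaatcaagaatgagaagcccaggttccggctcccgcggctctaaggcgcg

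Mkrn3 held CCGGAAGT once on each strand, which 3.89% of all windows hold at least once. Ube3a held AAGATGGC at -217 to -210, a motif in 2.74% of windows. The GC box, which 35.6% of windows hold, stood in 2 copies in Magel2 and at -101 to -96 in Ube3a. After the start, its reverse complement also stood in the windows of Ube3a and Ndn. Peg12 and the main Snrpn start had no capitals in this stretch. The Snrpn window did hold GCGGCA at its start site, the reverse complement of the ZFP57 hexamer TGCCGC, found in 11.6% of windows. Magel2 held TATAAA at -165 to -160, and 13.6% of windows hold that motif. CpG pairs numbered 29 in the Ube3a window, 15 in that of Mkrn3, 12 in that of Peg12, 11 in that of Ndn, 10 in that of Magel2 and 7 in that of the main Snrpn start. The median over all windows was 7. By these windows Ube3a was thus the most CpG-rich member, above 87.1% of windows. Mkrn3, Peg12, Ndn and Magel2 were above 65.4%, 60.4%, 58.6% and 56.6% of windows, and the main Snrpn start was above 47.9%. The windows end soon after the RefSeq start, whereas the Snrpn peaks described below reached 910 to 1660 bp after the GENCODE start. CpG pairs further into those peaks were not counted, so the value for Snrpn does not describe its whole start region.

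A gene was counted as having a promoter peak when a peak overlapped 500 bp either side of any of its GENCODE starts. By this rule 2 of the 6 genes had one in liver replicate 1, where 56.1% of all protein-coding genes did. In liver replicate 2 the count was 5, beside 57.9% of protein-coding genes. Both yolk sac lists had 5, beside 63.8% in replicate 1 and 62.4% in replicate 2. The liver mean was 3.5 ± 2.12 genes and the yolk sac mean 5 ± 0 (SD, n = 2 libraries per tissue; exact two-sided permutation p = 1). The tissues overlapped in the full lists, because liver replicate 2 equalled the yolk sac lists. They did not overlap in the higher-scoring 50% of each list, where liver had 2 and 2 genes and yolk sac 5 and 4 (difference 2.5; exact permutation p = 0.33). That filter keeps more peaks in yolk sac, whose full lists hold 50525 and 43055 peaks against 24863 and 24333 in liver. The share of all protein-coding genes was not computed under it, so these counts cannot be set apart from those of other genes. With the 24333 top peaks by score the tissues overlapped again, at 2 and 5 against 4 and 4 (difference 0.5). That share was not computed here either. With 2 libraries against 2, the smallest p-value that this test can give is 0.33. Nothing in the labels says that the 2 pools of a tissue came from separate litters, so the p-values measure the spread between these libraries only. Without liver replicate 1 the difference was 0, and without liver replicate 2 it was 3 genes.

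**Figure D1:**
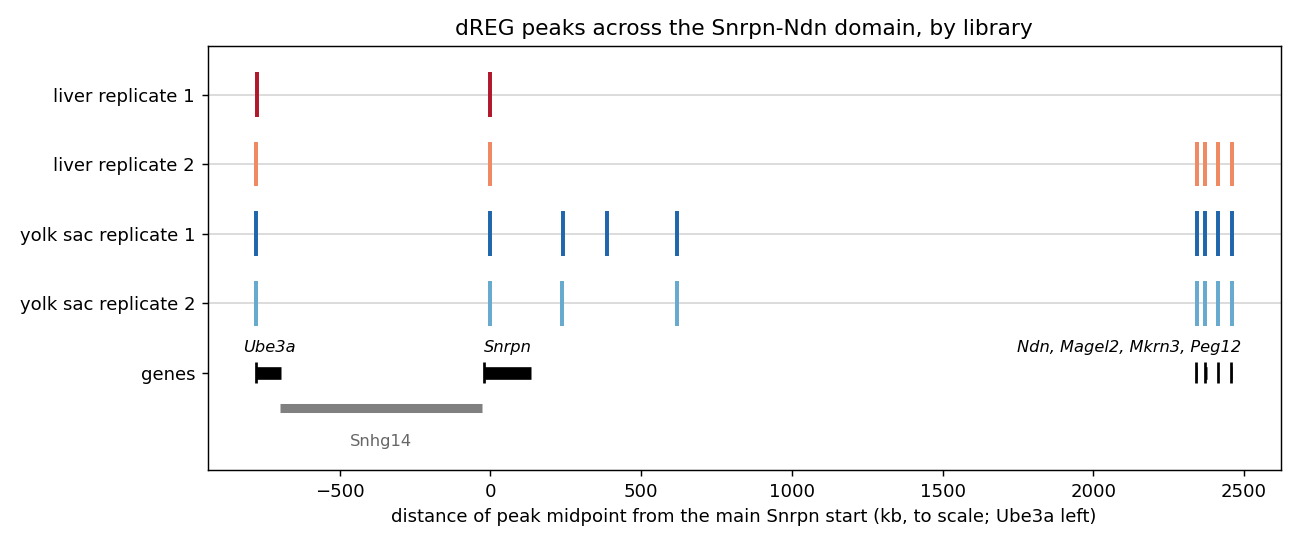
Peaks in each library across the domain, drawn as 1 line per peak at its midpoint, against the distance in kb from the main Snrpn start; black bars and ticks are the 6 genes and the grey bar is Snhg14. Liver replicate 1 had 2 peaks, liver replicate 2 had 6, and the yolk sac lists had 9 and 8, of which 3 and 2 lay between Snrpn and Ndn.

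Ube3a had a peak at its first exon in every library, the broadest of the domain in each list. The peak was 2752 bp wide in liver replicate 1, 2152 bp in liver replicate 2, 2352 bp in yolk sac replicate 1 and 2152 bp in yolk sac replicate 2. It reached from -949 to 1802 bp around the nearest start in liver replicate 1 and from -949 to 1202 bp in yolk sac replicate 2. The widths of the tissues overlapped. They exceeded those of 80.4% to 89.8% of the promoter peaks in the same list. Within its list, the liver peak scored above 73.9% and 89.3% of peaks, and the yolk sac peak above 71.4% and 82.4%. Scores are not scaled between libraries and the lists differ in length, so these percentiles place a peak in its own list and show no change between lists. Ube3a has 16 GENCODE starts, but no list had a second peak in its 82787 bp. An annotated antisense transcript, 9330162G02Rik, spans the same start region, but its own annotated start, at 59254788, lies outside the peak. The unstranded intervals cannot assign the peak to a strand.

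Snrpn also had a peak at its main start in every library, and its peaks were wider in liver. Liver replicate 1 had a width of 2102 bp and replicate 2 of 1552 bp, while yolk sac replicate 1 had 1152 bp and replicate 2 had 652 bp, so the tissues did not overlap. Among the 11805 protein-coding genes with a promoter peak in all 4 lists, 20.9% were wider in both liver lists than in both yolk sac lists, and 34.5% were narrower. Around the GENCODE start, the peak ran from -441 to 1660 bp in liver replicate 1. In yolk sac replicate 2 it ran from 259 to 910 bp after the start and did not cover it. That yolk sac peak had a score percentile of 22.6, against 81.7 in the other yolk sac list, 72.0 in liver replicate 1 and 81.7 in liver replicate 2. It was missed with a window of 250 bp, and it was absent from the higher-scoring 50% of its list. The starts of Snurf, which shares the Snrpn transcript, and of Gm38393 lie under the peak in both liver lists and yolk sac replicate 1, and within 500 bp of it in yolk sac replicate 2. The peak therefore cannot be assigned to 1 of these genes.

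Of the 6 genes, Ube3a and Snrpn had a promoter peak in all 4 lists, as did 53.8% of protein-coding genes. Averaged over them, the peak was 2427 bp wide in liver replicate 1 and 1852 bp in replicate 2, and 1752 bp in yolk sac replicate 1 and 1402 bp in replicate 2. Yolk sac averaged 1580 ± 247 bp against 2140 ± 407 bp for liver (SD, n = 2; exact permutation p = 0.33). The median over all promoter peaks was 1602 bp in replicate 1 and 1452 bp in replicate 2 of either tissue. For the mean score percentile of the pair, liver had 79.2 ± 8.87 and yolk sac had 64.5 ± 17.0 (SD, n = 2; exact permutation p = 0.667). The spread between yolk sac replicates exceeded the gap between tissues for this value. When each list was limited to its higher-scoring 50%, or to its 24333 top peaks by score, Snrpn was lost from yolk sac replicate 2 and the width difference, now of Ube3a alone, went from -562 to -200 bp.

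The upstream Snrpn starts had no peak, so with the outermost GENCODE start alone Snrpn was called in none of the 4 lists. The GENCODE start at 60140219 had its nearest peak at 134.7 and 135.1 kb in the liver lists, and at 103.6 kb in both lists from yolk sac. The RefSeq starts at 60047978 and 60450177 were at least 42.4 kb from any peak in each list. These upstream starts serve alternative first exons and have the similar sequences shown above. How reads matching several places were handled is not given in the sources used here, and its part in the absence was not tested.

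**Figure D2:**
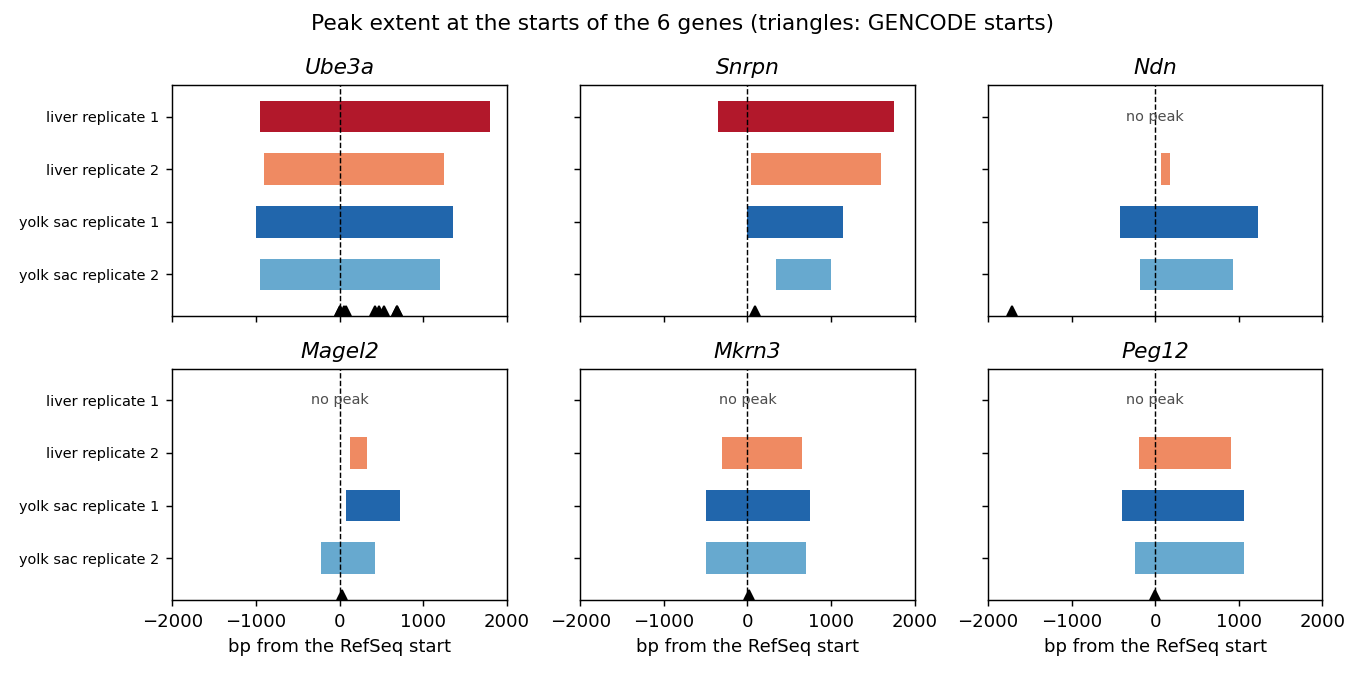
Extent of the start peak in each library, in bp from the RefSeq start of each gene in the direction of transcription, with the main start used for Snrpn; triangles mark GENCODE starts. Liver replicate 1 has no bar at Ndn, Magel2, Mkrn3 and Peg12, and the GENCODE start of Ndn lies outside every bar.

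The call of Ndn, the gene of necdin, changed with the annotation used. Ndn had no promoter peak in any of the 4 lists by its GENCODE start at 62346569. Among protein-coding genes 34.2% had none in any list. Yet 3 lists had a peak inside the gene, over or beside the RefSeq start at 62348277. The distance from the GENCODE start was 1.8 kb in liver replicate 2, 1.3 kb in yolk sac replicate 1 and 1.5 kb in yolk sac replicate 2, all beyond the windows of 500 and 1000 bp. In yolk sac the peaks were 1652 bp (62347851 to 62349502) and 1102 bp (62348101 to 62349202) wide and covered the RefSeq start. Their score percentiles were 42.2 and 52.9. In liver replicate 2 the peak was 102 bp wide (62348351 to 62348452), began 74 bp after the RefSeq start, and ranked above 2.9% of its list. The Ndn peak in that library is thus close to the lowest deposited score, 0.80, with a value of 0.81. Liver replicate 1 had no peak within 1454.2 kb of this start. With RefSeq starts added for all genes, a choice made after the values were seen, liver replicate 1 still had 2 of 6 genes and each other list had 6 of 6. The matching shares of protein-coding genes were 56.2%, 58.0%, 63.9% and 62.5%.

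Magel2, whose protein works with the ubiquitin ligase TRIM27 in endosomal sorting, had narrow peaks throughout. They were 202 bp wide in liver replicate 2 and 652 bp in both yolk sac lists, and liver replicate 1 had none. These widths exceeded those of 2.0%, 8.2% and 8.4% of the promoter peaks of their lists. The score percentile was 36.8 in liver replicate 2, 51.4 in yolk sac replicate 1 and 61.6 in yolk sac replicate 2. The liver peak lay from 91 to 292 bp after the GENCODE start, and the peak of yolk sac replicate 2, at -259 to 392 bp, was the one that covered it. With the top 24333 peaks by score, Magel2 remained in liver replicate 2 and yolk sac replicate 2 but not in yolk sac replicate 1.

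Mkrn3, known in humans as a brake on the onset of puberty, had a peak over its start in the same 3 lists. The width was 952 bp in liver replicate 2 and 1252 and 1202 bp in yolk sac. The score percentile was 33.7 in liver replicate 2 against 71.9 and 58.1 in the yolk sac lists. All 3 peaks covered the GENCODE start. The gene lies inside the span of Gm32061, a noncoding transcript on the same strand, whose annotated start lies upstream of the peak. That span also covers Ndn and Magel2, which lie on the other strand, and their peaks carry no strand either.

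Peg12 had the highest rank of the 6 genes in a yolk sac list and one of the lowest in a liver list. Its score percentile was 90.7 in yolk sac replicate 1, 67.7 in yolk sac replicate 2 and 12.5 in liver replicate 2. Widths were 1452, 1302 and 1102 bp in the same order, and each peak covered the start. Liver replicate 1 again had none.

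**Figure D3:**
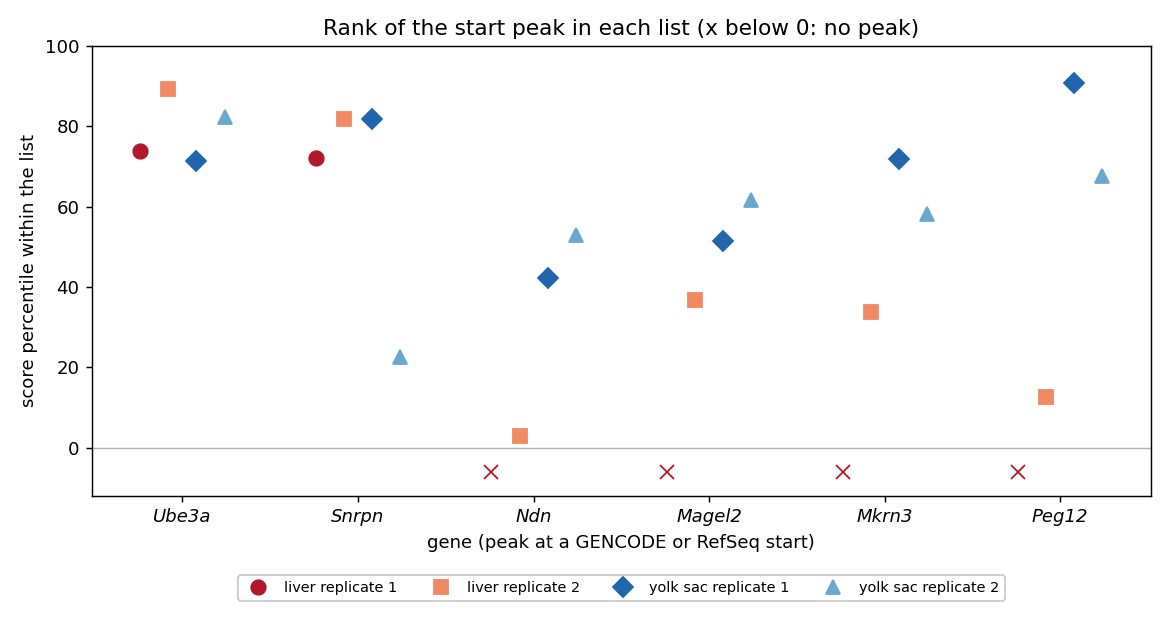
Score percentile of the start peak of each gene within each list, on the y axis, with GENCODE and RefSeq starts used; crosses below 0 mark lists without a peak. Ube3a has 4 values between 71.4 and 89.3, and liver replicate 1 has crosses at the 4 genes from Ndn to Peg12.

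The 2 liver lists disagreed at 3 of the 5 genes that either called by GENCODE starts, Magel2, Mkrn3 and Peg12, and at 4 of 6 with RefSeq starts, where Ndn was added. In every case the peak was in replicate 2. Of 12899 protein-coding genes with a promoter peak in a liver list, 6.09% had it in 1 list only, 4.6% in replicate 2 and 1.5% in replicate 1. With RefSeq starts the share for replicate 2 was 4.58%. The full pattern of Magel2, Mkrn3 and Peg12, present in liver replicate 2 and both yolk sac lists, was that of 2.23% of protein-coding genes, and of 2.22% with RefSeq starts. The mirror pattern, absent from liver replicate 2 alone, was that of 0.629% and of none of the 6 genes. The liver list of replicate 1 was the longer, with 24863 peaks against 24333, but it had promoter peaks at fewer protein-coding genes, 12306 against 12706. The part of list length or depth in the absences was not tested.

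The peaks on which the liver lists disagreed ranked low in replicate 2. They stood at score percentiles of 2.9 (Ndn), 12.5 (Peg12), 33.7 (Mkrn3) and 36.8 (Magel2), while the shared peaks of Snrpn and Ube3a stood at 81.7 and 89.3. Over the whole list of liver replicate 2, 41.7% of peaks in the lowest 10% of scores were overlapped by a peak of replicate 1. The share was 58.3% from the percentile 10 to 20 and 88.5% from 30 to 40. From 80 to 90 it was 99.8%. In the higher-scoring 50% of each list both liver lists had only Ube3a and Snrpn, and their disagreement was 0 genes. Both yolk sac lists, which keep more peaks under that filter, then still had Magel2, Mkrn3 and Peg12.

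**Figure D4:**
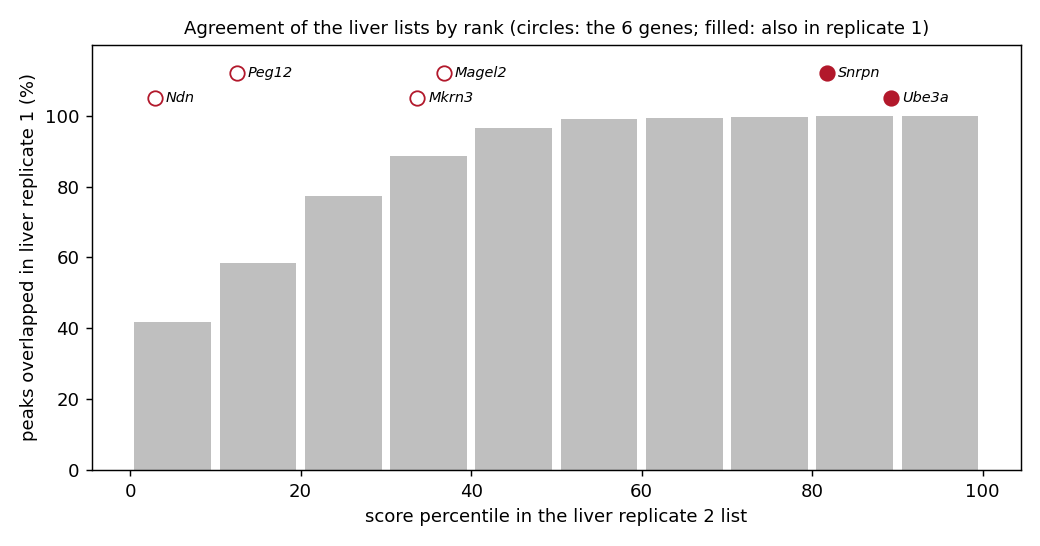
Bars give the percentage of liver replicate 2 peaks that overlapped a liver replicate 1 peak, by score percentile within the replicate 2 list. Circles place the start peaks of the 6 genes on the same x axis, filled where replicate 1 also had the peak; the 4 open circles lie at or below a percentile of 36.8.

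The absence in liver replicate 1 covered the whole group from Ndn to Peg12. Windows as long as this group, 117.9 kb, were placed at every peak of liver replicate 2. Of 12989 windows with at least 4 peaks in that list, 3 had none in replicate 1, and 1 of the 3 was the window at Ndn. In the reverse direction 5 of 13858 windows were of this kind. In yolk sac the numbers were 17 of 38579 windows placed on replicate 1 and 0 of 30949 placed on replicate 2. The window length and the minimum of 4 peaks match the group from Ndn to Peg12, so its window qualified by construction. Windows overlap and were not matched on score, while the 4 peaks of this group had percentiles of 2.9 to 36.8 in liver replicate 2.

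Peaks away from the starts were then counted. Within 50 kb of the 6 genes liver replicate 1 held 2 peaks and each other list held 6. The liver mean was 4 ± 2.83 and that of yolk sac 6 ± 0 (SD, n = 2; exact permutation p = 1). The same peaks overlapped the gene bodies, again 2 and 6 against 6 and 6, so no list had a peak in the flanks outside the genes. Every one of these peaks lay at a start described above. The difference of 2 peaks was 0 without liver replicate 1 and 4 without liver replicate 2. With the 24333 top peaks by score it was 0.5, from 2 and 6 against 4 and 5.

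Over the whole domain, from 50 kb before Ube3a to 50 kb after Peg12 (59178750 to 62514510), yolk sac had more peaks than either liver library. Liver had 2 and 6 peaks, yolk sac 9 and 8, with means of 4 ± 2.83 and 8.5 ± 0.707 (SD, n = 2; exact permutation p = 0.33). The full yolk sac lists are also longer, at 50525 and 43055 peaks. Among 779 genome intervals of this length, 3.34 Mb, the liver lists had median counts of 23 and 22, and the yolk sac lists of 52 and 42. By liver counts the domain exceeded 9.5% and 16.9% of the intervals, and by yolk sac counts 15.1% and 15.3%. Limited to the top 24333 peaks by score, the lists differed by 1 peak between tissues, with 2 and 6 for liver against 5 and 5.

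The additional yolk sac peaks lay upstream of Snrpn, outside the 50 kb flanks. The region at 60243801 to 60244802 was called in both yolk sac lists and in neither liver list, at score percentiles of 63.4 and 24.2. It lay 103.6 kb from the GENCODE span of Snrpn and inside the longer RefSeq span, which ends at 60450177. The region at 60390801 to 60391752 was called in yolk sac replicate 1 alone, at a percentile of 45.8. The region at 60622601 to 60623102 was called in both yolk sac lists, at percentiles of at most 10.8, and lay outside either span of the gene. The nearest annotated starts were those of processed pseudogenes, at 28.1, 97.6 and 20.8 kb. These regions were named after their values had been seen. Counted with RefSeq spans, gene bodies held 8 and 7 yolk sac peaks, against 2 and 6 for liver (difference 3.5; exact permutation p = 0.33).

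Genes next to the domain and relatives of its members were read from fixed lists. Among the neighbours reported, 7 had a promoter peak in all 4 lists. The 7 were Snurf, Atp10a, Herc2, Nipa1, Nipa2, Cyfip1 and Tubgcp5. Snhg14, the GABA receptor subunit genes Gabra5 and Gabrg3, and the pigment gene Oca2 had none in any list. Snhg14 is a noncoding gene and was judged at its GENCODE starts only, in a span that ends at 59975759. A start of this RNA elsewhere was not tested. All 7 Sm core protein genes and the makorins Mkrn1 and Mkrn2 had promoter peaks in all 4 lists. So did the 4 genes for partners of MAGEL2 and the 5 for E2 enzymes and partners of UBE3A. Herc2 is counted both among these 5 and among the neighbours. Among 6 MAGE family genes outside the domain found in the annotation, Maged1, Maged2, Mageh1 and Nsmce3 were called in all 4 lists. Magee1 and Magee2 were called in both yolk sac lists only, a pattern of 5.25% of protein-coding genes, with percentiles of 73.3 and 71.3 for Magee1 and of 29.3 and 48.5 for Magee2. Of the FRAT and GSK3 genes, Frat1, Frat2 and Gsk3b were called in all 4 lists. Gsk3a lacked a peak in liver replicate 1 alone, a pattern of 2.23% of protein-coding genes. It had percentiles of 26.2, 46.6 and 40.0 in the other lists.

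Markers of cell types were counted in the same way. Of all protein-coding genes, 56.1% and 57.9% had a promoter peak in liver replicates 1 and 2. In yolk sac replicates 1 and 2 the shares were 63.8% and 62.4%. None of 6 neuronal genes had a promoter peak in any list, and 6 of 6 erythroid genes had one in both liver lists and 2 of 6 in both yolk sac lists, where Gata1, Klf1, Alas2 and Slc4a1 had none. Mesenchymal genes had peaks at 3 of 6 in liver replicate 1, 5 of 6 in liver replicate 2 and 6 of 6 in both yolk sac lists. The genes that differed between the liver lists were Pdgfra and Dcn, and Hand1 was called in neither. Col1a1, Col1a2 and Col3a1 were called in both. Their percentiles were 37.6, 40.5 and 61.4 in liver replicate 1, and 35.2, 75.3 and 10.2 in liver replicate 2. Endothelial genes had peaks at 3 of 4 in liver replicate 1 and at 4 of 4 in each other list, with Tek as the difference. In the other direction, yolk sac endoderm genes had peaks at 4 of 6 in liver replicate 1 and 2 of 6 in liver replicate 2, and hepatic genes at 5 and 4 of 6. Afp and Ttr are on both of these lists, and the genes that differed were Afp and Lrp2, so the hepatic difference is Afp alone. Amn and Cubn were called in neither liver list, and Cps1 in neither yolk sac list. Both yolk sac lists had all 6 yolk sac endoderm genes and 4 of 6 hepatic genes. The part of cell composition in the calls at Ndn, Magel2, Mkrn3 and Peg12 was not tested.

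Genes with the most similar pattern were found from the score percentiles in the 4 lists, with 0 for no peak and likeness as the sum of absolute differences. They were Ngfr (7.33) and Gnao1 (8.93) for Magel2, B3galt1 (6.03) and Tmem266 (6.84) for Mkrn3, and Slc27a6 (6.83) and Zfp455 (9.42) for Peg12. Each of these 6 genes lacked a promoter peak in liver replicate 1, as their choice by small sums nearly requires. For Ube3a they were Papss2 (4.81) and Sirt1 (5.58). Snrpn had Snurf at 0, through the shared peak, and next Tap2 at 24.6. The percentiles of Tap2 were 78.5 and 79.8 in the liver lists and 70.3 and 27.5 in yolk sac. Tap2 thus also ranked lowest in yolk sac replicate 2.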

How the data were processed

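PRO-seq was performed on 2 liver and 2 yolk sac libraries, and 1 peak list per library was deposited, with no replicates pooled. The submitters' processing notes name Bowtie2, bedtools and the build mm10. The word dREG comes with the deposited lists. Caller settings and filters are not given in the sources used here. The deposited score of each peak has no unit and was used only as the percentage of peaks in the same list with a lower score. Peak positions are as deposited by the authors, written 1-based. The lists hold 24333 to 50525 peaks and no read counts, so the depth is unknown. Between 33.5% and 55.8% of peaks lay at an annotated start, and 11.1% to 14.6% after a shift of 5 kb.

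Starts and gene spans came from GENCODE vM21 (GRCm38), and promoter letters from RefSeq (GRCm38.p6). Overlap meant at least 1 bp. Computations used scipy 1.17.1, pandas 2.3.3 and numpy 2.4.6 under Python 3.11.15 and were tested on simulated peaks. Tissues were compared by exact two-sided permutation over 6 assignments of the libraries. By rule, the genes named are the 6 members, list genes not called alike in all libraries, and the 2 protein-coding genes most like each member called by GENCODE starts, predicted genes and receptors of smell skipped. Other list genes were named after their values were seen. Members and lists were chosen with earlier results of these data known. Not every listed neighbour is reported here. Alternatives were score filters, other windows, flanks and starts, midpoints, single libraries left out and the replicate number as a block.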

Additional observations from a re-analysis of the deposited data

How the results depend on the processing

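With 2 libraries per tissue no p-value could go below 0.33, so values were compared by size. No difference between the tissues changed sign, though some fell to 0. Leaving out 1 library gave differences (yolk sac minus liver) of 0 to 3 genes for members with a promoter peak, 0 to 4 for peaks within 50 kb and 0 to 4 for peaks in gene bodies. Both ends of these ranges came from leaving out a liver library. The same step gave 2.5 to 6.5 for peaks in the domain, -26.7 to -2.6 for the score percentile and -850 to -275 bp for the width. In the higher-scoring 50%, which keeps more peaks in yolk sac, the difference was 2.5 members, with no share of all protein-coding genes computed. It was 3 peaks both within 50 kb and in gene bodies (p = 0.33 for each by exact permutation). With equal numbers of peaks per list these 3 differences were each 0.5. With equal numbers the domain difference moved from 4.5 to 1, and the width difference moved from -562 to -200 bp with either score filter. The disagreement of the liver lists went from 3 genes to 0 in the higher-scoring 50%. The numbers in the labels do not say that libraries were paired, and over 61095 merged regions the differences within liver and within yolk sac had a correlation of -0.00643. With the replicate number as a block the differences keep their values by arithmetic, 1.5 genes, 2, 2 and 4.5 peaks, -14.6 and -562 bp. Only the p-value can change with the block, and the smallest possible p is 0.5. The promoter call of Ube3a was the same in all 6 alternatives run for it. That of Snrpn was lost in yolk sac replicate 2 with either score filter and with 250 bp, and in all 4 lists when the outermost start alone was used. The lists hold no reads, so an absent peak means only that none passed the score limit.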

Other observations

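The stretches between the member genes hold many noncoding genes and few peaks. Between Ube3a and Snrpn (59311537 to 59982494) none of the 4 lists had a peak, although 210 small nucleolar RNA genes are annotated in these 671 kb, which are mostly the body of Snhg14. These RNAs are known to be processed from introns of the host transcript. Between the outermost RefSeq start of Snrpn and Ndn (60450178 to 62346568), 20 microRNA genes, many of the Mir344 family, and 7 long noncoding RNA genes are annotated over 1896.4 kb. In this stretch the liver lists had 0 peaks and each yolk sac list had 1. Beyond Peg12, the next peak lay 1338.0 and 1337.9 kb away in liver, and for yolk sac 747.6 and 1290.2 kb away.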
